A study of Rattus norvegicus with 6 samples.

Results

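The genes described here are the synaptic adhesion molecules Nrxn2, Nrxn3, Nlgn1, Nlgn2, Nlgn3, Cadm1, Cadm2, Cadm3 and Cadm4, measured in the L5 dorsal root ganglion (DRG) of the rat. They were taken as the probe sets that carry exactly 1 gene symbol in the platform annotation, equal to 1 of these 9 names. This gave 140 of the 226599 probe sets on the array and 9 of the 13378 genes that could be measured. A probe set covers about 1 exon, and the probe sets of a gene were combined into a gene level by median polish. All 9 genes entered the test, since no gene was filtered out for a low level. The 9 names were matched as they stand, and members of these families outside the 9 names were not analysed here.

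Neurexins are single-pass proteins of the presynaptic membrane, made in long and short forms from separate promoters and spliced in many combinations. They bind neuroligins on the postsynaptic side as well as secreted cerebellins, neurexophilins and leucine-rich repeat proteins, and they tie these contacts to the release machinery through cytoplasmic scaffolds. The Cadm molecules, also called SynCAMs or nectin-like molecules, are immunoglobulin-domain proteins that bind themselves and each other across cell contacts, both at synapses and where Schwann cells meet axons. Along myelinated axons, Cadm4 is known on the Schwann cell side and Cadm3 on the axonal side of that contact. Sensory neurones of the DRG send central terminals into the spinal cord, where they are presynaptic.

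The study compared L5 ganglia of naive male Wistar rats with ganglia removed 7 days after the L5 spinal nerve had been cut (spinal nerve transection, SNT), a rat model of neuropathic pain in which the axons of these neurones are severed. Each group had 12 animals in 3 pools of 4, and each pool was hybridised to 1 Affymetrix Rat Exon 1.0 ST array. The controls were not operated on, so surgery without nerve injury had no group of its own. All values below are log2 normalised probe intensities unless a fold is named, and a difference of 1 on this scale is a doubling.

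The ganglion holds several cell types, and in such bulk tissue fewer cells of a type and less RNA per cell cannot be told apart. Of 8 measured pan-neuronal markers 5 were lower in SNT, with a median change of -0.61, while Stmn2 (0.00), Tubb3 (-0.01) and Uchl1 (-0.30) did not pass the test. Summed on the linear scale, these markers ran from 36895 to 39999.5 in naive and from 27059.8 to 33253 in SNT. All 10 measured macrophage markers were higher, and their sum ran from 1509 to 2104 in naive and from 4376 to 9001 in SNT. Of 7 myelinating Schwann cell markers 2 were higher, Mag (0.68) and Egr2 (0.83). The groups overlapped for Egr2 but not for Mag. The sum of the 7 overlapped between the groups (15434 to 18588 in naive, 15280.1 to 18216 in SNT). Of 5 measured satellite glia markers 2 were lower, Fabp7 (-1.31) and Slc1a3 (-0.34), and 1 was higher, Gja1 (0.40). Among all genes 36.3% passed the same test, 23.3% lower and 12.9% higher. The array SNT 1 lay nearer to the naive arrays than SNT 2 and SNT 3 did (r of 0.955 to 0.960 against 0.938 to 0.947). Its median neuronal change was -0.37, against -0.86 in SNT 2 and -0.60 in SNT 3, and its median macrophage change was 0.93, against 2.08 and 1.54.

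Most of these genes fell after SNT and Cadm4 rose. At a false discovery rate (FDR) of 0.1 over all genes (limma, 3 arrays per group), Nrxn2, Nrxn3, Nlgn1, Cadm1 and Cadm3 were lower, Cadm4 was higher, and Nlgn2, Nlgn3 and Cadm2 did not pass. That is 6 of 9 genes (66.7%), where 36.3% of all genes passed, 23.3% lower and 12.9% higher. With median centring of the arrays 2397 of all genes were lower and 3074 higher, against 3120 and 1731 in the deposited scaling. There the median of all probe sets was 6.77 to 6.88 on SNT arrays and 6.93 to 6.98 on naive arrays. The median change of the 9 genes was -0.49, and that of all genes was -0.02. The groups did not overlap in 7 of the 9 genes, as was the case for 45.7% of all genes. With any 1 array left out the 6 genes kept their calls and directions, and without SNT 1 Cadm2 was called as well. With each gene represented by its most variable probe set, Nlgn1 (limma adjusted p = 0.297), Cadm3 (0.172) and Cadm4 (0.101) missed the threshold. For Nlgn1 this was probe set 6128508, whose mean was below background and which read 4.28, 3.24 and 5.85 in SNT. Background here is a cutoff of 5.11, percentile 25 of the means of all probe sets, and not a measured level.

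**Figure D1:**
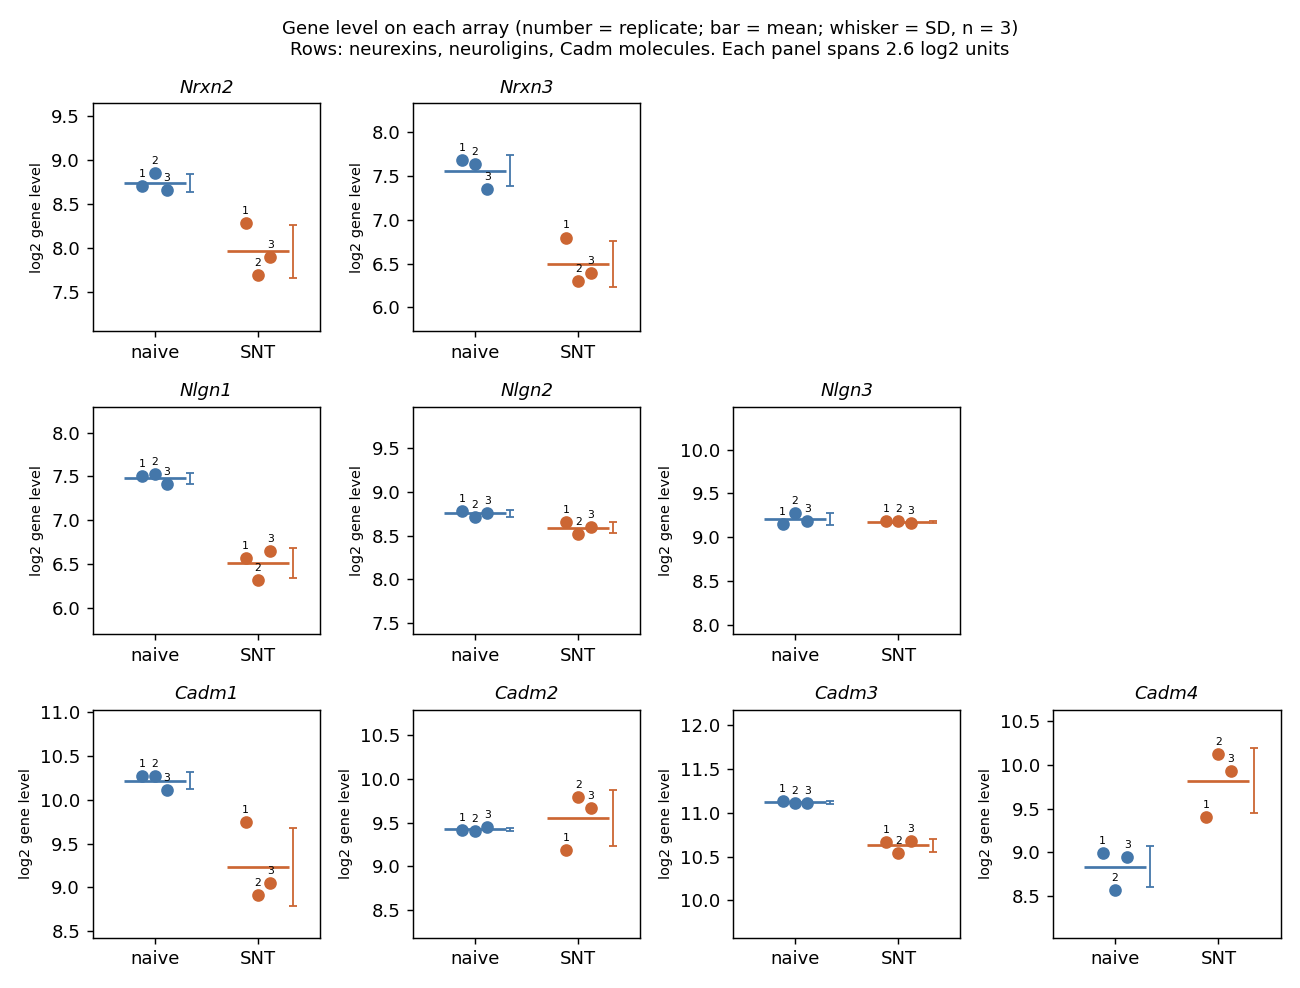
Gene level (log2, vertical axis) of each gene on every array, with naive in blue and SNT in orange, the replicate number over each point, the group mean as a bar and the SD (n = 3) as a whisker. Each panel spans the same 2.6 log2 units, so that the fall of Nrxn3 from a mean of 7.56 to 6.50 and the rise of Cadm4 from 8.84 to 9.82 can be set beside Nlgn3, which stayed between 9.15 and 9.28 on all arrays.

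Both neurexins were lower after SNT. Nrxn3 lay at 7.69, 7.64 and 7.36 in the naive pools and at 6.80, 6.30 and 6.39 in the SNT pools. Every SNT array was below every naive array, and SNT 1 was the nearest to them. The change was -1.06 ± 0.16 (SE), which is 2.09-fold lower (limma adjusted p = 0.00419). This was the largest fall of the 9 genes with all arrays in the fit, but without SNT 1 Cadm1 (-1.22) was below Nrxn3 (-1.14), and without SNT 3 Nlgn1 (-1.06) was below it (-1.05). Nrxn2 lay at 8.70, 8.86 and 8.66 in naive ganglia and at 8.29, 7.69 and 7.90 in SNT ganglia. Again the groups did not overlap and SNT 1 was the highest of the injured pools. Nrxn2 fell by 0.78 ± 0.16, or 1.72-fold (adjusted p = 0.0111).

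Of the neuroligins, the postsynaptic partners of neurexins, Nlgn1 passed and Nlgn2 and Nlgn3 did not. It is best known from excitatory synapses of the brain. Nlgn1 read 7.51, 7.53 and 7.41 in naive ganglia and 6.57, 6.32 and 6.65 in SNT ganglia, with a gap between the groups that was wider than the range of either. The change was -0.97 ± 0.11 (1.96-fold lower, limma adjusted p = 0.00231). Nlgn2, known from inhibitory synapses, read 8.78, 8.71 and 8.76 in naive and 8.65, 8.52 and 8.60 in SNT. Its groups did not overlap, but the difference of -0.16 ± 0.09 did not pass (adjusted p = 0.209). Nlgn3, found at both kinds of synapse, read 9.15, 9.28 and 9.18 in naive and 9.19, 9.18 and 9.16 in SNT. These values overlapped, with a difference of -0.03 ± 0.08 (adjusted p = 0.836) whose sign turned to 0.051 with cyclic loess and 0.084 with median centring of the arrays.

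The promoters of Nlgn1 and Nlgn3 were read from RefSeq (build GRCr8) as the 250 bases before the listed transcript start, 5′ to 3′ on the gene's strand. They are shown because the probe sets of Nlgn1 moved together while those of Nlgn3 did not pass. RefSeq entries were found for Nlgn1, Nlgn2, Nlgn3, Cadm2, Cadm3 and Cadm4, and Nrxn2, Nrxn3 and Cadm1 are named only. The listed start of Nlgn1 lies inside the span that RefSeq gives the gene. Capitals mark matches on either strand to the letters of 5 motifs. These are TGANTCA for AP-1, TGACGTCA for the cyclic AMP response element (CRE) and GGGCGG for the GC box. The last pair are the letters that name the CCAAT box, and TATAAA for the promoter element known as the TATA box.
Nlgn1 (chr2:110930677-110930926, minus strand): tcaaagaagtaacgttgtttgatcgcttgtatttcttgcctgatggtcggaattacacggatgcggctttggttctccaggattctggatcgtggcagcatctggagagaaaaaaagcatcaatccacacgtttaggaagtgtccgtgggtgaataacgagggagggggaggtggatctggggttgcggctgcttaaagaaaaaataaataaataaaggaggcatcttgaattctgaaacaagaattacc
Nlgn3 (chrX:70469228-70469477, plus strand): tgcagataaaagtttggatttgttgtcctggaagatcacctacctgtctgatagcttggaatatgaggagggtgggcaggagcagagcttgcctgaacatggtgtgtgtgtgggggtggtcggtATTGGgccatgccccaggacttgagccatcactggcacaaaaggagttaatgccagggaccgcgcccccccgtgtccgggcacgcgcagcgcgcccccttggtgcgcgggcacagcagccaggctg
The Nlgn1 window held none of the 5 motifs, a GC content of 44.4% and 10 CpG. The Nlgn3 window held 1 CCAAT box, on the opposite strand, with a GC content of 60.0% and 11 CpG. Over 33469 promoters of this length the median GC content was 51.2% with 5 CpG, and 34% held a CCAAT box. A match is a run of letters and not a measured binding site.

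The 4 Cadm molecules did not move alike. Cadm1 (SynCAM1), an adhesion molecule of both synaptic membranes, lay at 10.27, 10.28 and 10.11 in naive ganglia and at 9.74, 8.91 and 9.05 in SNT ganglia. All SNT arrays were below all naive arrays, and SNT 1 stood well above the other injured pools. Cadm1 fell by 0.98 ± 0.21 (1.97-fold, limma adjusted p = 0.0135). Cadm3, the axonal partner of Cadm4, was at 11.14, 11.12 and 11.11 in naive and at 10.66, 10.54 and 10.68 in SNT. This was the tightest of the falls, with an SD of 0.02 in naive and 0.08 in SNT. The change was -0.49 ± 0.09 (1.41-fold lower, adjusted p = 0.00657).

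With all arrays in the fit, Cadm4 was the only gene of the 9 that rose. It read 8.99, 8.57 and 8.95 in the naive pools, and the injured pools were at 9.41, 10.12 and 9.93. The groups did not overlap, and the smallest rise was in SNT 1, at 0.57 above the naive mean against 1.29 in SNT 2 and 1.09 in SNT 3. The change was 0.98 ± 0.20 (1.98-fold higher, limma adjusted p = 0.0119). The same order of the SNT arrays was seen in the medians of the macrophage markers above. It was also seen for T and cytotoxic cells (1.24, 2.40 and 1.82 on SNT 1, 2 and 3). Fibroblasts (0.28, 0.71 and 0.62) and endothelium and pericytes (-0.02, 0.27 and 0.26) shared it too. Myelinating Schwann cells (-0.09, -0.09 and 0.18) and satellite glia (-0.20, -0.15 and -0.28) did not share this order. Neither did non-myelinating Schwann cells (-0.16, -0.10 and 0.04) or skeletal muscle (-0.42, -0.34 and 0.97). The neuronal markers fell least on SNT 1 and most on SNT 2, as given above. The part of these cell types in the rise was not tested. Cadm2, which is known mainly from neurones, read 9.41, 9.40 and 9.45 in naive and 9.19, 9.79 and 9.67 in SNT. SNT 1 was below and SNT 2 and SNT 3 were above all naive pools, and the difference of 0.13 ± 0.16 did not pass (adjusted p = 0.592). Without SNT 1 it was 0.23 with an adjusted p of 0.0535 (limma).

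The promoters of Cadm3 and Cadm4 are shown because these partners moved in opposite directions.
Cadm3 (chr13:88349719-88349968, minus strand): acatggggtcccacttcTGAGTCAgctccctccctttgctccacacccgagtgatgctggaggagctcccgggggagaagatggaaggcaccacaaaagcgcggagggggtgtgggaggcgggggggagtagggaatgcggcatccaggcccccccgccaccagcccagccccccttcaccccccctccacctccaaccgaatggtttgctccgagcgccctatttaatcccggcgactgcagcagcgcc
Cadm4 (chr1:89202839-89203088, plus strand): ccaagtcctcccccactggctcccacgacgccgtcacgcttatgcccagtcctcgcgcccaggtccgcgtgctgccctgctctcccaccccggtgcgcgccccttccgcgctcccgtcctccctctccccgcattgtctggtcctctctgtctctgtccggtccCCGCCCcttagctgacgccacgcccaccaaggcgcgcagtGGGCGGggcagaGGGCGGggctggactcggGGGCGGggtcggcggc
In the Cadm3 window the capitals are 1 AP-1 match, in the letters found in 6.34% of all promoters of this length. The Cadm4 window held 4 GC boxes, which 30.5% of promoters hold at least once, and no AP-1 letters. Its GC content was 74.0% with 27 CpG, against 66.4% with 13 CpG for Cadm3. The CRE and TATA letters, present in 1.59% and 12.9% of promoters, were in neither window. Nothing about the factors that read such letters was measured here.

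**Figure D2:**
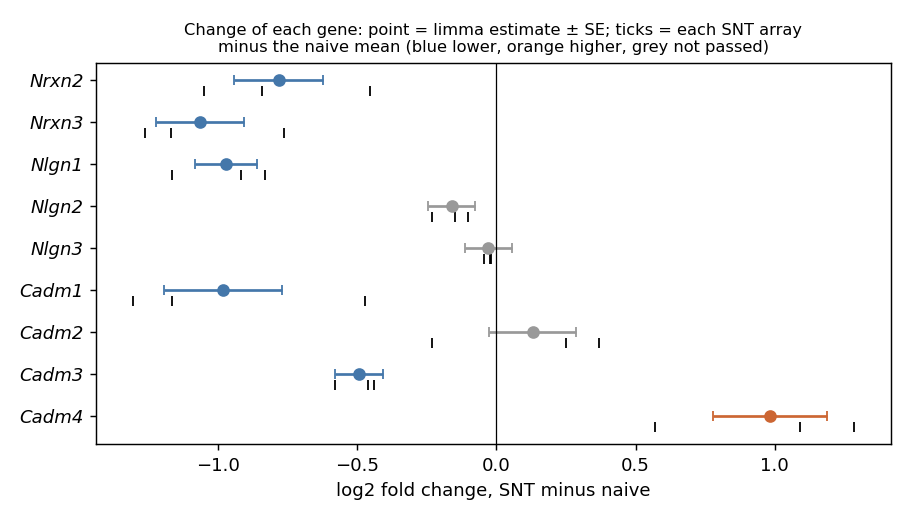
Change of each gene as log2 SNT minus naive (horizontal axis), with the limma estimate and SE as a point and whisker and the 3 SNT arrays, each minus the naive mean, as ticks below it. Blue marks genes that were lower, orange higher and grey not passed at an FDR of 0.1. In Nrxn2, Nrxn3, Cadm1 and Cadm4 the tick nearest to 0 is SNT 1, and Cadm2 has ticks on both sides of 0.

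Whether relatives changed to a different degree was asked with the difference of 2 genes on the same array, compared between SNT and naive over 10 pairs. With 3 arrays against 3, an exact two-sided permutation test cannot go below p = 0.1, so no pair could pass 0.05. In 8 of the 10 pairs the differences did not overlap between the groups, and each of these had the smallest possible exact p of 0.1 (0.125 after Benjamini-Hochberg adjustment over the pairs). Over all pairs of the 13378 genes the differences did not overlap in 49.9%. Cadm3 minus Cadm4 was 2.15, 2.55 and 2.16 in naive and 1.26, 0.42 and 0.76 in SNT, a shift of -1.47. Cadm1 minus Cadm4 shifted further, by -1.96, from a naive mean of 1.38 to -0.58. A shift measures how far apart the changes of a pair were, not its levels.

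The other pairs moved less. Nlgn1 shifted by -0.94 against Nlgn3 and by -0.81 against Nlgn2. Nlgn2 minus Nlgn3 overlapped between the groups, with a shift of -0.13 (exact p = 0.3) that was -0.056 without naive 1 and -0.054 without SNT 2. Among the Cadm molecules, Cadm2 shifted by 0.62 against Cadm3 and by -0.85 against Cadm4, and Cadm1 by -1.11 against Cadm2. Cadm1 minus Cadm3 overlapped, with a shift of -0.49 (exact p = 0.2), or -0.74 without SNT 1. The fall of Nrxn3 exceeded that of Nrxn2 by 0.28, and by 0.47 without naive 3.

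At the level of single probe sets, the direction of each changed gene was shared by most of its probe sets. Of the 140 probe sets, 65 were lower and 6 higher at an FDR of 0.1 over all probe sets (limma), and 117 changes were negative. Shares of negative changes and of an unadjusted p under 0.05 over all probe sets were not counted. Array medians were lower in SNT, and such counts here and below cannot be read as particular to these genes. Over the whole array 15.9% of probe sets passed, 10.7% lower and 5.16% higher. The count of 71 went down to 35 without naive 1 and to 30 without naive 2. Of the 140, 134 had a mean above the background level of 5.11, and of these 63 were lower and 6 higher.

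**Figure D3:**
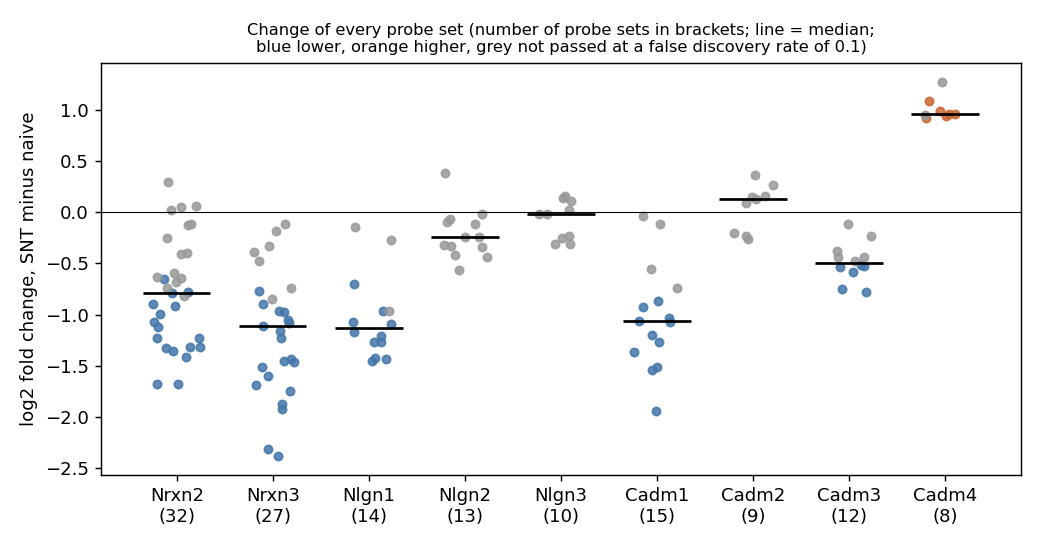
Change of every probe set (log2, SNT minus naive, vertical axis) by gene, with the number of probe sets in brackets and the median as a line. Blue points were lower, orange higher and grey not passed at an FDR of 0.1, so that Nrxn3 shows 20 blue points of 27, Cadm4 has all 8 points above 0.9, and the points of Nlgn3 and Cadm2 lie on both sides of 0.

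In Cadm4 all 8 probe sets were higher in SNT by estimate, between 0.92 and 1.28, and 6 of them passed. Probe set 6184221, for example, read 9.65, 9.27 and 9.74 in naive and 10.26, 10.74 and 10.63 in SNT. The number that passed went to 1 without naive 1, 0 without naive 2, 2 without naive 3 and 3 without SNT 2 (limma), although 6 to 8 of them kept an unadjusted p under 0.05 in each of these fits. In Nlgn1 all 14 changes were negative, from -1.46 to -0.15, and 11 passed (6 without naive 1, 7 without naive 2). In Cadm3 all 12 were negative, from -0.78 to -0.12, and 6 passed, with 10 at an unadjusted p under 0.05. That count was 0 without any 1 of the naive arrays, with 5 to 7 at an unadjusted p under 0.05, and 1 without SNT 2.

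The genes that did not pass as a whole had no probe set past the FDR either (limma). Of the 13 probe sets of Nlgn2, 2 had an unadjusted p under 0.05, 12 changes were negative, and the range was -0.56 to 0.38. Of the 10 of Nlgn3 none had an unadjusted p under 0.05, 6 were negative, and the range was -0.32 to 0.16. For Cadm2 the count was 0 of 9 at either threshold, with 3 negative changes and a range of -0.26 to 0.36. With a trended and robust variance, or with only probe sets above background, 2 probe sets of Nlgn2 passed, both lower.

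Whether the exons of a gene changed by different amounts was tested with limma's diffSplice F test on 10741 genes, of which 19.5% passed. The test pools the variance over the probe sets of a gene. In simulated data whose variance differed between probe sets, but not between groups, more of its calls were false than true. That is far more than its nominal rate allows. The deviations of single probe sets below rest on the same pooled variance. The spread in these data was wider in SNT, so the simulated rate need not hold here. Of the 9 genes, 3 passed, namely Nrxn2 (adjusted p = 1.05e-07, 32 probe sets), Nrxn3 (0.000135, 25) and Cadm1 (0.0111, 15). Cadm1 did not pass when any 1 naive array was left out, and 7 of the 9 genes passed without SNT 3. The adjusted p of the other 6 genes ran from 0.253 for Cadm3 to 1.00 for Cadm4.

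In Nrxn2, a gene with a long extracellular part built of many exons, 17 of 32 probe sets were lower (9 without naive 1, 7 without naive 2) and none higher, with changes from -1.68 to 0.30. The probe set that stood furthest from the rest was 6389200, at 9.19, 9.11 and 9.13 in naive and 9.55, 9.44 and 9.34 in SNT. It lay above naive on all SNT arrays, in a gene that fell, although its own change of 0.30 did not pass (adjusted p = 0.292). Relative to the other probe sets of Nrxn2 it deviated by 1.11 (diffSplice adjusted p = 0.00394). Probe set 6400400 was also flat, with a change of 0.06 and a deviation of 0.86 (adjusted p = 0.0432). The brighter probe sets 6413816 (8.96 in naive, 9.02 in SNT) and 6710388 (10.24 and 10.26) were flat too (diffSplice adjusted p = 0.0474 and 0.0620). At the other end stood 5915146 and 6742992, both with a change of -1.68 and a deviation of -0.93. The dimmer of them, 6742992, averaged 6.98 in naive and 5.30 in SNT, which is close to the background level of 5.11.

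In Nrxn3, 20 of 27 probe sets were lower (12 without naive 2) and all 27 changes were negative, from -2.38 to -0.12. The steepest was 6739536, at 9.94, 9.95 and 9.73 in naive and 8.17, 7.03 and 7.28 in SNT. It fell by 2.38 ± 0.30, a deviation of -1.22 from the gene (diffSplice adjusted p = 0.0250). Probe set 6411718 had a change of -2.32 and a deviation of -1.15 (adjusted p = 0.0389). On the flat side were 6177435, which was dim (5.97 in naive, 5.85 in SNT), and 6713525, which read 7.68, 7.61 and 7.66 in naive and 7.67, 7.61 and 7.14 in SNT. In the latter SNT 3 was clearly and SNT 2 marginally below the naive range, and its deviation was 1.07 (adjusted p = 0.0646).

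In Cadm1, 11 of 15 probe sets were lower and all 15 changes were negative, from -1.94 to -0.04. Leaving out a naive array brought the number that passed to 5 (naive 1), 4 (naive 2) or 7 (naive 3). Probe set 5786555 deviated downwards, from 7.51, 7.80 and 7.08 in naive to 5.71, 5.21 and 5.64 in SNT (deviation -0.99, diffSplice adjusted p = 0.0676). Another pair was flat and dim. Probe set 6351839 averaged 5.72 in naive and 5.68 in SNT, and 5670657 averaged 6.45 and 6.33. A dim probe set holds a value even where its exon is near background. No probe set was placed on the genome or assigned to a long or short form.

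**Figure D4:**
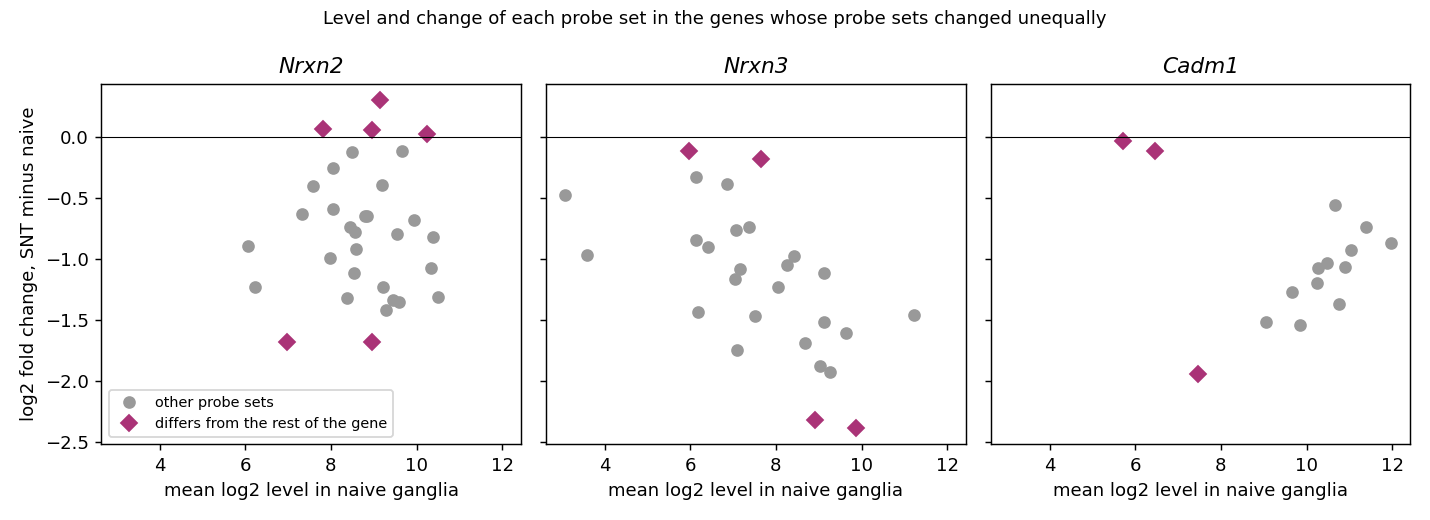
Mean log2 level in naive ganglia (horizontal axis) and change of each probe set (SNT minus naive, vertical axis) for Nrxn2, Nrxn3 and Cadm1. Purple diamonds differed from the rest of their gene in the diffSplice test at an FDR of 0.1. In Nrxn2 they include probe set 6389200 at a change of 0.30, in Nrxn3 the lowest diamonds are at -2.38 and -2.32, and in Cadm1 the flat diamonds lie at levels of 5.72 and 6.45, below the other probe sets.

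Binding partners of these molecules, factors that shed or splice them and other adhesion molecules were described from 4 lists with 102 genes, of which 76 were measured. In all, 41 were lower, 4 were higher and 31 did not pass (limma, FDR 0.1), which is 59.2%, with a median change of -0.41. The shares of each list below stand beside 36.3% of all genes (23.3% lower, 12.9% higher), and ranks within a list are those of the fit to all arrays. The split by direction changed with median centring, under which 34 partner genes were lower and 9 higher. Neuronal markers fell beside them, as given above, and the part of cell composition in these counts was not tested. Of 19 extracellular ligands and partners 8 were lower and 1 was higher (47.4%, median -0.22). Cbln4, a secreted cerebellin that bridges neurexins to receptors, had the largest change, from 6.32, 6.45 and 6.12 in naive to 5.37, 4.44 and 4.21 in SNT (-1.62 ± 0.29). Its SNT mean of 4.67, a gene level, was under the probe set cutoff of 5.11 used as background, so the size of its fall is uncertain. Mdga2, which covers neuroligins and blocks their binding to neurexins, fell by 0.94 ± 0.16. The calsyntenins Clstn3 and Clstn1 fell by 0.89 ± 0.22 and 0.67 ± 0.10, and the limma adjusted p of these 4 genes ran from 0.00387 to 0.0213. The gene of this list that rose was Cbln2, another cerebellin (0.48 ± 0.13, adjusted p = 0.0300), and it was picked after its value was seen.

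Of 22 cytoplasmic scaffolds 13 were lower and 1 was higher (63.6%, median -0.48). Lin7b and Lin7a, small PDZ proteins in the complex that binds the neurexin tail, had the largest changes. Lin7b went from 8.99, 9.06 and 9.10 in naive to 7.95, 7.36 and 6.92 in SNT (-1.64 ± 0.24), and Lin7a changed by -1.53 ± 0.14. Their complex partners Apba1 (Mint1) and Cask were lower too, by 1.40 ± 0.23 for the first on the log2 scale, with a change of -0.47 ± 0.10 for the second. Cask, like the exceptions below, was picked after its value was seen. Dlg2 (PSD-93), a scaffold on the neuroligin side, changed by -1.06 ± 0.13, and its paralogue Dlg3 was the gene that rose (0.30 ± 0.10, limma adjusted p = 0.0619). For the 4 largest changes the adjusted p ran from 0.00160 to 0.00574. Lin7c (0.15 ± 0.19) and Shank3 (0.01 ± 0.08) did not pass.

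Of 10 shedding and splicing factors 4 were lower and 2 higher (60.0%, median -0.19). Adam17, a metalloprotease that sheds membrane proteins, rose from 9.25, 9.03 and 9.29 to 9.66, 10.42 and 10.16 (0.89 ± 0.19). The splicing repressor Ptbp1 rose by 0.78 ± 0.15, and its neuronal relative Ptbp2 was lower (-0.35 ± 0.12, picked after its value was seen). Bace1, the beta-secretase, fell by 0.87 ± 0.12, and Khdrbs3 (Slm2), which controls a neurexin splice site in the mouse brain, by 0.69 ± 0.11. The limma adjusted p of these 5 genes ran from 0.00354 to 0.0654.

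Of 25 other synaptic and axonal adhesion molecules 16 were lower and none higher, also at an unadjusted p under 0.05 (limma, 64.0%, median -0.64). Slitrk3, an organiser of inhibitory synapses, had the largest change, from 9.45, 9.42 and 9.21 to 8.04, 6.58 and 6.80 (-2.22 ± 0.35), but rests on 2 probe sets. Lrfn5 (SALM5) fell by 2.15 ± 0.26, from 9.04, 9.09 and 8.85 to 7.40, 6.27 and 6.86. Cntnap4, a neurexin-like Caspr protein, changed by -1.54 ± 0.15 to an SNT mean of 4.89, also under the cutoff used as background. Slitrk1 changed by -1.41 ± 0.14. None of the SNT arrays reached the naive range in these 4 genes, which were named for the size of their change. The groups did not overlap in 45.7% of all genes. The limma adjusted p of the 4 genes ran from 0.00172 to 0.00499.

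**Figure D5:**
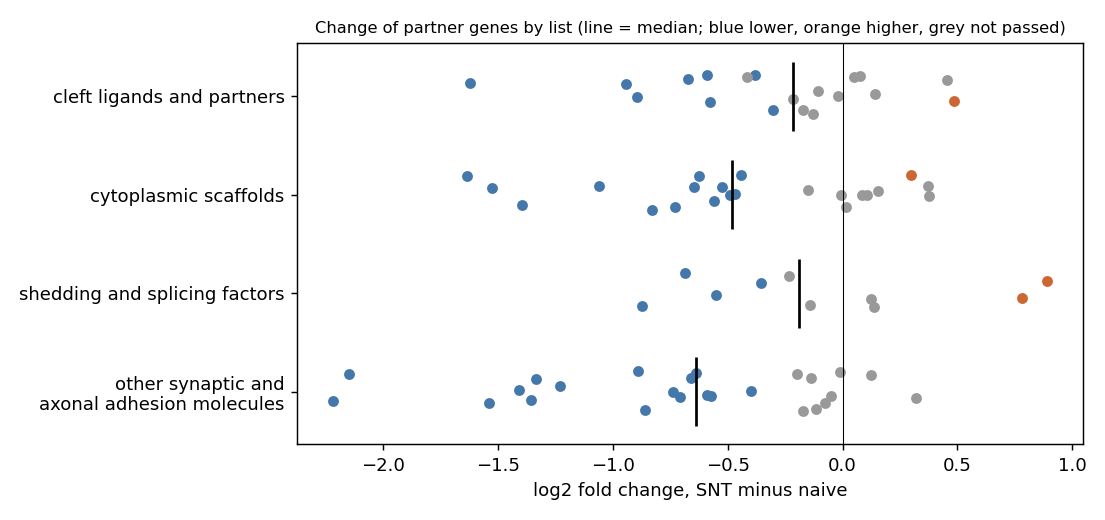
Change of each measured partner gene (log2, SNT minus naive, horizontal axis) by list, with the median of the list as a line. Blue genes were lower, orange higher and grey not passed at an FDR of 0.1. The 4 orange points are Cbln2, Dlg3, Ptbp1 and Adam17, and the points furthest to the left are Slitrk3 and Lrfn5.

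The genes that ran closest to Nrxn3 and Cadm4, the largest fall and rise with all arrays in the fit, were sought among 12108 genes with 3 or more probe sets, by the root mean square difference over the 6 arrays after centring each gene on its naive mean. Closest to Nrxn3 were Zfp612, a zinc finger gene (difference 0.04), Trmt9b, a tRNA methyltransferase relative (0.05), and Dlg2 (0.06). Their changes were -1.01, -1.02 and -1.06. Closest to Cadm4 were Cd63, a tetraspanin of lysosomes (0.06), Soat1, which esterifies cholesterol (0.06), and Tnfrsf1b, a receptor for tumour necrosis factor (0.07). Cd63 lay at 10.15, 9.90 and 10.21 in naive and 10.67, 11.35 and 11.22 in SNT. In both genes naive 2 was the lowest array, and SNT 1 the lowest and SNT 2 the highest of the injured pools. Likeness over 6 arrays that fall into 2 groups is a description and was not tested.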

How the data were processed

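The authors deposited 226599 log2 values for each of 6 arrays. They had processed the scanner files in R with oligo, using RMA, which subtracts background, equalises the distributions of the arrays by quantile normalisation and summarises probes by median polish. Versions of oligo and RMA: not given in the sources used here. Quantile normalisation makes every change relative to the array as a whole. The deposited arrays were still not level in their medians over all probe sets. These were 6.98, 6.93 and 6.96 in naive 1 to 3 and 6.77, 6.88 and 6.88 in SNT 1 to 3. The values ran from 1.84 to 14.35, and no detection calls were used. The number of arrays, 3 per group, limits the precision.

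Of the probe sets, 164162 had exactly 1 gene symbol, 2388 had several and were used for no gene, and 60049 lacked a symbol. An update of symbols with the GRCr8 gene table changed the symbol of 25622 probe sets, but none of the 9 names described here. Gene levels came from Tukey median polish (at most 20 iterations), with a median of 10 probe sets per gene. The groups were compared with limma 3.58.1 (lmFit, eBayes; R 4.3.3), with group as the only term, two-sided, with Benjamini-Hochberg adjustment over all genes or all probe sets and an FDR of 0.1, as in the study's methods. SE are moderated limma errors. Unequal exons were tested with diffSplice where at least 3 probe sets exceeded a background of 5.11 (percentile 25 of the means of all probe sets). The tests were checked on simulated data with equal variance in both groups, in which the probe set test missed most planted changes.

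The 9 genes, the partner and marker lists and the tests were chosen with earlier results of these data known. Named were all 9 genes, the 4 largest changes past the threshold in each partner list, up to 4 deviating probe sets of each gene past the F test, and the 3 genes nearest to the largest fall and rise. Other names given as exceptions or examples were picked after their values were seen. Alternatives covered the FDR (0.05), the variance model, array weights, cyclic loess, median centring, other summaries and filters of probe sets, the replicate number as a block and leave-one-out fits. For the pairs of genes, the leave-one-out fits were added once values had been seen. Per the series description, the pools are separate biological samples. The labels name no batch or scan date.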

Additional observations from a re-analysis of the deposited data

How the results depend on the processing

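The 6 calls at gene level were kept with an FDR of 0.05, a trended and robust variance, array weights, cyclic loess, median centring, the mean of the probe sets, probe sets above background only and the replicate block. With each gene represented by its most variable probe set, 3 of the 9 genes passed, all lower (Nrxn2, Nrxn3 and Cadm1). Nlgn1 (-0.97, limma adjusted p = 0.297), Cadm3 (-0.78, 0.172) and Cadm4 (1.28, 0.101) then missed the threshold, and Cadm2 turned to -0.21. The Nlgn1 probe set in this fit had a mean below background. Nlgn3 turned to 0.051 with cyclic loess and to 0.084 with median centring. The median change of all genes, -0.02 in the deposited scaling, was then 0.02 and 0.09, so Nlgn3 stayed within 0.1 of it in all 3. With cyclic loess 2784 of all genes were lower and 2380 higher, and with median centring 2397 and 3074. The cause of these shifts was not tested. With 1 array left out, 6 to 7 genes, 30 to 81 probe sets, 33 to 54 partner genes and 2 to 7 genes with unequal exons passed, and 2735 (without naive 1) to 5864 of all genes against 4851, with 2887 without naive 2. Over the other alternatives the ranges were 52 to 86 probe sets, 34 to 55 partner genes and 3 genes with unequal exons in each. The number of Cadm3 probe sets that passed ran from 1 (FDR of 0.05, median centring or the replicate block) to 10 (trended and robust variance), with 3 under cyclic loess.

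Arrays with equal replicate numbers were no more alike than others. Deviations from the group means correlated at -0.07, -0.22 and 0.06 for equal numbers, against -0.23 to 0.29 for unequal ones. With 3 arrays per group, such values cannot exclude processing shared by number. With the replicate number as a block, the same number of genes passed (6, with 5 lower), 59 probe sets, 42 partner genes and 3 genes with unequal exons. Low precision at 3 arrays against 3 and wider spread in SNT (median SD of a gene 0.18 against 0.09 in naive) limit the smaller changes.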
